A study of Homo sapiens with 36 samples.

Results

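The genes of 8 ATP-binding cassette (ABC) transporters of the multidrug efflux type were followed across chemical treatments of a kidney cell line: ABCB1, ABCB6, ABCC1, ABCC2, ABCC3, ABCC4, ABCC5 and ABCG2. They were chosen by name. On the array platform 20 probe sets name 1 of them and no other gene, and each gene is represented by its brightest probe set, averaged over all arrays. All 8 had a probe set. Of these, 7 passed the filter on low values (above 4 on the log2 scale on at least 3 of 36 arrays), among 11092 genes tested. ABCG2 did not pass, and ABCC2 passed only through treated arrays, so counts over the tested transporters describe them and are no evidence about the family.

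The cells were HK-2, a line of human proximal tubule cells that has been immortalized. They were kept in medium with EGF, hydrocortisone, insulin, transferrin and selenite and treated when nearly confluent. The labels name the treatments CdCl, Di and Kbr and do not write them out. One array set of 18 held CdCl, Di and vehicle control, each at 12 h and 48 h. A separate set of 18 held Kbr at a high dose, Kbr at a low dose and vehicle control, each at 24 h and 48 h. No concentration is stated for any of them. Each of the 12 groups had 3 arrays labelled as biological replicates. Nothing says that they came from separate cultures, so p-values measure the spread between these arrays.

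ABC efflux pumps use ATP to move their substrates across a membrane, for most of the listed transporters out of the cell. In the proximal tubule ABCB1, ABCC2 and ABCC4 sit in the luminal membrane and release drugs, conjugates and organic anions into the urine, while ABCC1, ABCC3 and ABCC5 are found mainly on the blood side. Several genes of the family are known targets of NRF2, the transcription factor of the oxidative stress response, and of xenobiotic receptors.

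Values are log2 expression, and a difference is the treated mean minus the mean of the control of the same set and time, with its SE, from 1 limma model of all 36 arrays. A gene is said to rise or fall where its p-value, adjusted over all genes tested, was under 0.05. Arrays of a group correlated at r = 0.982 to 0.995. The 3' minus 5' signal of beta-actin, a sign of RNA quality, had group means of 1.40 to 1.84 in the CdCl and Di set and 0.87 to 1.06 in the Kbr set. All 5 epithelial markers passed the filter, as were 6 of 14 proximal tubule markers, 1 of the 7 distal nephron markers with a probe set and 2 of the 11 of fibroblasts, endothelium and leukocytes. The proximal tubule markers LRP2, CUBN, ANPEP, GGT1, SLC5A2, SLC34A1, AQP1 and PAX2 stayed at or under the floor of 4 on every array.

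Of the 7 tested transporters 4 changed with CdCl at 12 h (where 43.9% of all genes did), 5 with CdCl at 48 h (42.7%) and 6 with Di at 48 h (43.0%). With Di at 12 h it was 0 by limma (6.27% of all genes), and 4 had an unadjusted p under 0.05, each with a lower mean than control. The share of all genes at that unadjusted threshold was not counted, so nothing is read from the 4. Of all genes called there, 510 were lower and 185 higher. High-dose Kbr changed 2 at 24 h (40.7%) and 4 at 48 h (61.8%). Low-dose Kbr changed 3 at 24 h (15.2%) and 4 at 48 h (47.0%). Treatments of 1 set and time share their control arrays.

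**Figure D1:**
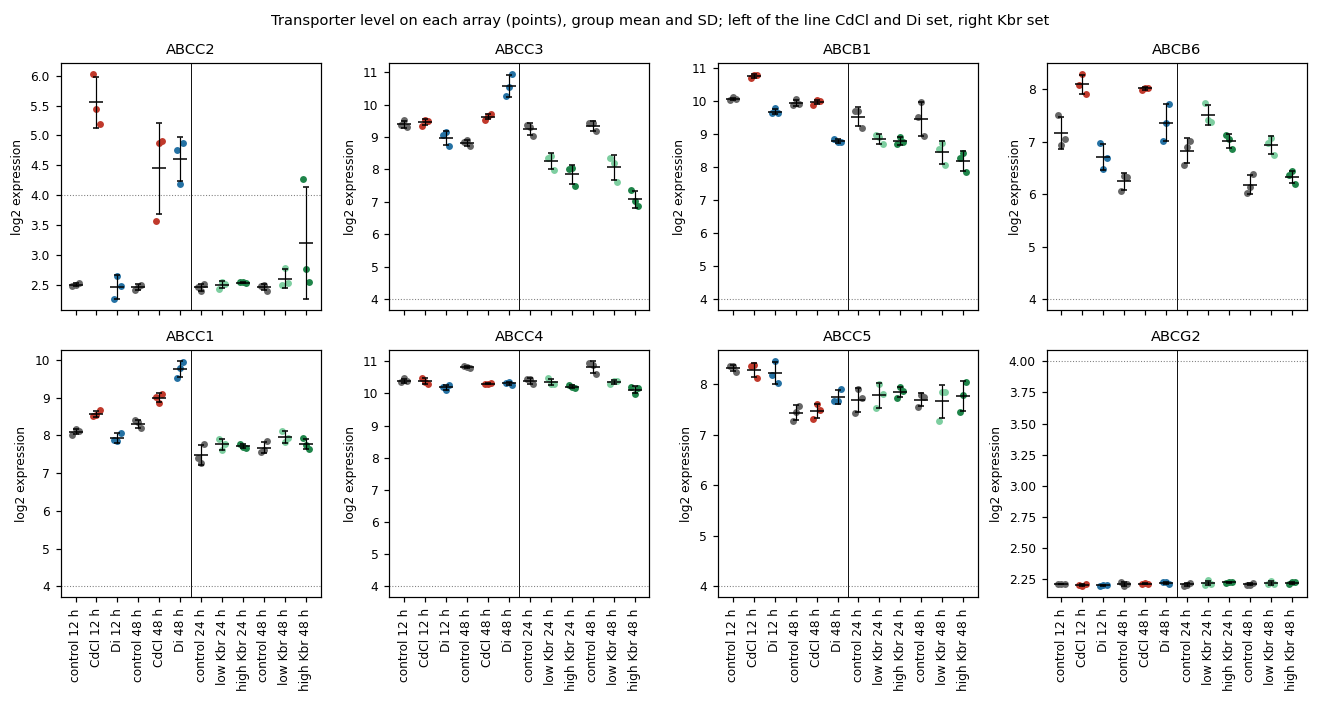
Log2 expression of the 8 transporters on each array (points), with group mean and SD (3 arrays a group), left of the vertical line in the CdCl and Di set and right of it in the Kbr set; the dotted line is the floor of 4. The mean of ABCC2 lies above the floor with CdCl and with Di at 48 h, ABCC3 is highest with Di at 48 h (10.58 ± 0.34 (SD, n = 3)) and lowest with high-dose Kbr at 48 h (7.08 ± 0.26 (SD, n = 3)), and ABCG2 stays under the floor on every array.

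ABCC2 (MRP2), the luminal pump for glutathione and glucuronide conjugates, went from background to a measurable level with CdCl and, at 48 h, with Di. Its probe set read 2.47, 2.49 and 2.52 on the 12 h control arrays and 6.02, 5.45 and 5.18 after 12 h of CdCl. At 48 h it read 2.40, 2.47 and 2.49 in control, 3.57, 4.88 and 4.90 with CdCl and 4.76, 4.19 and 4.87 with Di. No treated array of these groups overlapped its control, and CdCl replicate 1 at 48 h was the 1 treated array still under the floor. Controls were at background, so each fold is a lower bound, the treated mean over the floor. It was at least 2.94-fold higher with CdCl at 12 h (adjusted p = 6.29e-09), at least 1.36-fold with CdCl at 48 h (adjusted p = 5.17e-06) and at least 1.52-fold with Di at 48 h (adjusted p = 1.37e-06). ABCC2 passed the filter only through treated arrays, so its p-values here and below are no independent support for a rise.

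After 12 h of Di, ABCC2 read 2.26, 2.65 and 2.47 and overlapped control. In the Kbr set it was above the floor on a single array, replicate 1 of high-dose Kbr at 48 h. That group read 4.27, 2.76 and 2.55 against 2.48, 2.49 and 2.40 in control. The comparison passed (0.74 ± 0.30, adjusted p = 0.0369) and rested on this array: without it the difference was 0.20. The call was lost without control 48 h replicate 1 or 2 or 3, high-dose Kbr 48 h replicate 1 (adjusted p = 0.0638 to 0.531), with no filter on low values (0.74, adjusted p = 0.0750), or with array weights (0.59, adjusted p = 0.140). Both means were under the floor, so no fold is given. The other Kbr groups did not pass.

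The 250 bases before the RefSeq start of ABCC2 are shown because this pump went from background to a measurable level. They lie at chr10:99782390-99782639 on the plus strand of GRCh38.p14, with the match to a searched motif in capitals.
ABCC2: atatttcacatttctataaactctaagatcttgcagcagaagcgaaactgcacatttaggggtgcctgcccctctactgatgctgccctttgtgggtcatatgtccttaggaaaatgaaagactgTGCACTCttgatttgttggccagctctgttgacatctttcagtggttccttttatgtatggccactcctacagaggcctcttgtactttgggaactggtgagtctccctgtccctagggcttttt
Windows from 250 bases before to 50 after each start were searched on both strands for the core of the antioxidant response element bound by NRF2 (TGACNNNGC or TGAGNNNGC), the core of the metal response element bound by MTF1 (TGCACNC or TGCGCNC) and a pair of inverted heat shock units (GAANNTTC). Over all windows of that RefSeq table the share was 29.1% that held the first, 29.6% for the next and 6.77% for the last. The ABCC2 window held a metal response core (TGCACTC, first base at -125 from the start) and neither of the other motifs. The ABCC4 window held an antioxidant core (first base at -149) and a metal response core (-111). The ABCC5 window held none, and 2 of the 5 windows of ABCG2 held both cores. No window of ABCC1 or ABCC3 was searched. A match describes the letters only.

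ABCC3 (MRP3), which exports glucuronides and bile salts to the blood side, rose with Di at 48 h. On the probe set used it also rose with CdCl at 48 h and fell with Kbr at both doses and times. With Di at 48 h it read 10.27, 10.55 and 10.94 against 8.84, 8.91 and 8.72 in control, a 3.39-fold rise (1.76 ± 0.18, adjusted p = 4.73e-09). With CdCl at 48 h it read 9.54, 9.65 and 9.70, a 1.75-fold rise (0.81 ± 0.18, adjusted p = 0.000595). Every treated array lay above every control array in both.

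High-dose Kbr took ABCC3 at 24 h to 8.0, 8.04 and 7.50 against 9.38, 9.32 and 9.05 in control (2.64-fold lower, -1.40 ± 0.18, adjusted p = 7.61e-07). At 48 h it read 7.36, 7.02 and 6.86 against 9.45, 9.43 and 9.18, 4.83-fold lower (-2.27 ± 0.18, adjusted p = 1.87e-11). With its probe sets averaged the difference was -0.53 at 24 h and -0.88 at 48 h, both called. The low dose gave 8.36, 8.43 and 7.97 at 24 h (-0.99 ± 0.18, adjusted p = 0.000508) and 8.35, 8.21 and 7.63 at 48 h (-1.29 ± 0.18, adjusted p = 1.48e-06). Averaged probe sets gave -0.38 and -0.51, again called. No Kbr array overlapped its control.

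At 12 h ABCC3 did not pass. CdCl arrays read 9.35, 9.54 and 9.50 and overlapped the control at 9.36, 9.52 and 9.31. Di arrays read 9.05, 9.15 and 8.73, all under control (-0.42 ± 0.18, adjusted p = 0.163), and passed with array weights (adjusted p = 0.00331).

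ABCC1 (MRP1), which exports glutathione conjugates and leukotriene C4, rose with CdCl at both times and with Di at 48 h. Di at 48 h gave 9.52, 9.79 and 9.94 against 8.39, 8.34 and 8.19 in control, 2.71-fold higher (1.44 ± 0.12, adjusted p = 1.15e-10). CdCl at 48 h gave 9.02, 8.86 and 9.10 (0.69 ± 0.12, adjusted p = 4.04e-05). At 12 h CdCl arrays read 8.50, 8.55 and 8.66 against 8.02, 8.17 and 8.11, with no overlap in any of these. The median of all genes in CdCl at 12 h was -0.16, so differences there are given relative to it beside the adjusted p of the unshifted difference, for ABCC1 0.64 ± 0.12, adjusted p = 0.00240.

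In the Kbr set ABCC1 overlapped control in each comparison and did not pass. The differences ran from 0.10 ± 0.12 (high dose, 48 h) to 0.29 ± 0.12, adjusted p = 0.0515 (low dose, 48 h, 95% interval 0.04 to 0.54). Same-numbered arrays of this set deviated together, and with the replicate number as a block the low dose at 48 h had an adjusted p of 0.0319. It passed with a filter at 6, with median centring, with its probe sets averaged, with the replicate block, without Kbr control 48 h replicate 3 or without low-dose Kbr 48 h replicate 2 (adjusted p = 0.0191 to 0.0463). At 24 h the high dose passed with quantile normalization, with median centring or without Kbr control 24 h replicate 3 (adjusted p = 0.0146 to 0.0237) and the low dose without Kbr control 24 h replicate 3 (adjusted p = 0.0161).

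ABCC4 (MRP4), the luminal exporter of urate and cyclic nucleotides, was lower than control with every treatment at 48 h. In the CdCl and Di set it read 10.87, 10.82 and 10.79 in control, 10.31, 10.30 and 10.32 with CdCl (-0.52 ± 0.08, adjusted p = 1.32e-05) and 10.32, 10.36 and 10.26 with Di (-0.51 ± 0.08, adjusted p = 1.43e-05). With Kbr the 48 h control read 10.94, 10.90 and 10.60, the high dose 10.21, 10.00 and 10.16 (-0.69 ± 0.08, adjusted p = 5.66e-08) and the low dose 10.28, 10.38 and 10.39 (-0.46 ± 0.08, adjusted p = 5.94e-05). Treated and control arrays did not overlap in any of these 4.

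The ABCC4 controls themselves rose with time. They went from 10.40 ± 0.06 (SD, n = 3) at 12 h to 10.82 ± 0.04 (SD, n = 3) at 48 h in the CdCl and Di set (0.42 ± 0.08, adjusted p = 0.000161) and from 10.40 ± 0.09 (SD, n = 3) at 24 h to 10.81 ± 0.19 (SD, n = 3) at 48 h in the Kbr set (0.42 ± 0.08, adjusted p = 0.00178). The last call was lost with its probe sets averaged (0.31, adjusted p = 0.0652). The treated arrays at 48 h ran from 10.00 to 10.39. At 12 h and 24 h no treatment passed for ABCC4, although high-dose Kbr at 24 h (-0.18 ± 0.08, adjusted p = 0.0820) did without Kbr control 24 h replicate 3 (adjusted p = 0.0467) and Di at 12 h (-0.21 ± 0.08, adjusted p = 0.131) did with array weights (adjusted p = 0.0482).

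ABCC5 (MRP5), an exporter of cyclic nucleotides, passed in none of the 8 comparisons with control in the model of all arrays. Its largest difference was with Di at 48 h, 7.66, 7.67 and 7.91 against 7.28, 7.46 and 7.57 (0.31 ± 0.16, adjusted p = 0.118), where the arrays did not overlap. It was called there with the array set fitted by itself or with array weights (adjusted p = 0.00958 to 0.0412). The controls of that set differed by time, with 8.36, 8.35 and 8.25 at 12 h (-0.89 ± 0.16, adjusted p = 4.76e-05 for 48 h against 12 h). Those of the Kbr set overlapped (0.01 ± 0.16).

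**Figure D2:**
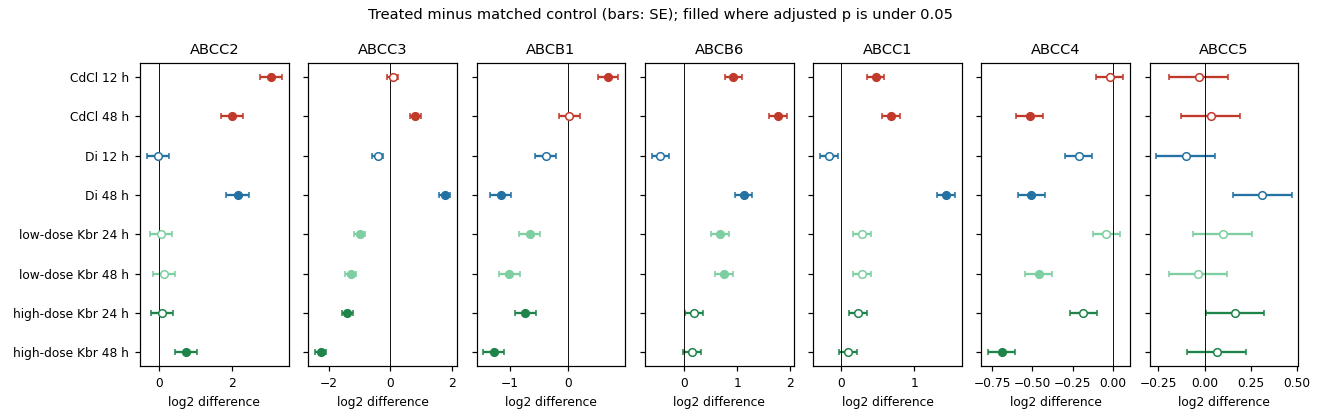
Log2 difference, treated minus matched control, of the 7 tested transporters in the 8 comparisons (bars, SE; filled points passed at an adjusted p under 0.05; each panel has its own axis; CdCl at 12 h is drawn without the shift by the median). ABCC3 lies at 1.76 with Di and -2.27 with high-dose Kbr at 48 h, and no point of ABCC5 is filled.

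ABCB1 (MDR1), the P-glycoprotein that exports bulky hydrophobic drugs, rose with CdCl at 12 h and fell with Di at 48 h and with Kbr. After 12 h of CdCl it read 10.70, 10.79 and 10.79 against 10.03, 10.11 and 10.06 (0.85 ± 0.18 relative to the median of all genes, adjusted p = 0.00282). At 48 h of CdCl it read 9.90, 10.02 and 10.00 against 9.89, 10.05 and 9.91 and overlapped control (95% interval -0.35 to 0.39). Di gave 9.64, 9.78 and 9.64 at 12 h, under all control arrays without passing (-0.38 ± 0.18, adjusted p = 0.208), though it passed with the array set fitted by itself or with array weights (adjusted p = 0.00288 to 0.0120). At 48 h it gave 8.85, 8.77 and 8.75, 2.24-fold lower (-1.16 ± 0.18, adjusted p = 5.81e-06).

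In the Kbr set the ABCB1 controls read 9.68, 9.69 and 9.19 at 24 h and 9.51, 9.96 and 8.93 at 48 h. The high dose gave 8.70, 8.93 and 8.75 at 24 h (-0.73 ± 0.18, adjusted p = 0.00185) and 8.28, 8.43 and 7.85 at 48 h (2.43-fold lower, -1.28 ± 0.18, adjusted p = 6.57e-07). The low dose gave 8.98, 8.92 and 8.69 at 24 h (-0.66 ± 0.18, adjusted p = 0.0132) and 8.55, 8.74 and 8.06 at 48 h (-1.01 ± 0.18, adjusted p = 4.34e-05). Every Kbr array lay under its controls, of which replicate 3 was the lowest at both times. The low-dose call at 24 h was lost without control 24 h replicate 1 or 2, low-dose Kbr 24 h replicate 3 (adjusted p = 0.0673 to 0.0790), or with the array set fitted by itself (-0.66, adjusted p = 0.104).

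RefSeq lists 2 starts for ABCB1 in the table. The 250 bases before the downstream one, chr7:87600885-87601134 on the minus strand of GRCh38.p14, are shown because they hold the heat shock pair (GAACATTC, first base at -175 from the start), while the window of the other start held none of the motifs.
ABCB1: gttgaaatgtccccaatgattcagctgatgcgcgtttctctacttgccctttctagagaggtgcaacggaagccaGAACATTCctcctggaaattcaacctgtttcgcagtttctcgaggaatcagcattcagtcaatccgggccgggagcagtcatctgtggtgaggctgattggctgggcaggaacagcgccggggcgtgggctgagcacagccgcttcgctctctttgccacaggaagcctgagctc

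ABCB6, which carries porphyrins, the precursors of haem, rose with CdCl at both times, with Di at 48 h and with low-dose Kbr at both times. With CdCl it read 8.08, 8.28 and 7.92 at 12 h against 7.50, 6.93 and 7.06 (1.09 ± 0.17 relative to the median, adjusted p = 4.97e-05). At 48 h it read 7.99, 8.03 and 8.03 against 6.06, 6.34 and 6.33, 3.41-fold higher (1.77 ± 0.17, adjusted p = 1.19e-09). Di gave 6.97, 6.48 and 6.69 at 12 h, overlapping control (-0.45 ± 0.17, adjusted p = 0.105), and 7.02, 7.36 and 7.72 at 48 h, 2.17-fold higher (1.12 ± 0.17, adjusted p = 2.69e-06).

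With low-dose Kbr ABCB6 read 7.73, 7.42 and 7.38 at 24 h against 6.56, 6.91 and 7.02 (0.68 ± 0.17, adjusted p = 0.00593) and 6.97, 7.08 and 6.75 at 48 h against 6.03, 6.14 and 6.38 (0.75 ± 0.17, adjusted p = 0.000496), without overlap. The 24 h call was lost without control 24 h replicate 1 (adjusted p = 0.0593). High-dose arrays overlapped control at both times (0.19 ± 0.17 at 24 h and 0.15 ± 0.17 at 48 h). The controls fell with time by 0.92 ± 0.17 in the CdCl and Di set (adjusted p = 4.79e-05) and by 0.65 ± 0.17 in the Kbr set (adjusted p = 0.0110). The latter call was lost without control 24 h replicate 3, control 48 h replicate 1 (adjusted p = 0.0719 to 0.0970), or with array weights (-0.59, adjusted p = 0.0665).

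The 250 bases before the start of ABCB6, chr2:219218959-219219208 on the minus strand of GRCh38.p14, are shown because they hold the antioxidant response core (TGACCAAGC, first base at -152 from the start), as the ABCC4 window does.
ABCB6: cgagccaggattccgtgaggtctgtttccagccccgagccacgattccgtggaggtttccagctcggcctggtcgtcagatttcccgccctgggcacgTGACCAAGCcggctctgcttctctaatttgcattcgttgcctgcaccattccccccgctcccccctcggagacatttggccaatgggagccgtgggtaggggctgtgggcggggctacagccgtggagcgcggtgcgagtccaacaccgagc

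ABCG2 (BCRP), the luminal exporter of urate and many drugs, had a single probe set, which read 2.19 to 2.24 on the 36 arrays. It was not tested.

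CdCl and Di differed from each other in 5 of the 7 transporters at 12 h (35.6% of all genes), each higher with CdCl. They were ABCC2 (at least 2.94-fold, adjusted p = 5.44e-09), ABCB6 (1.38 ± 0.17), ABCB1 (1.08 ± 0.18), ABCC1 (0.64 ± 0.12) and ABCC3 (0.49 ± 0.18, adjusted p = 0.0347). The ABCC3 call was lost without CdCl 12 h replicate 2 or 3, Di 12 h replicate 3 (adjusted p = 0.0891 to 0.171), or with no filter on low values (0.49, adjusted p = 0.0622). At 48 h 4 differed (37.6%). ABCB1 (1.18 ± 0.18, adjusted p = 8.43e-06) and ABCB6 (0.65 ± 0.17, adjusted p = 0.00264) were higher with CdCl, and ABCC1 (-0.76 ± 0.12, adjusted p = 1.64e-05) and ABCC3 (-0.95 ± 0.18, adjusted p = 0.000126) were higher with Di. ABCC2 did not pass there, with an interval of -0.78 to 0.47. ABCC4 at 12 h (0.19 ± 0.08, adjusted p = 0.0727) passed with median centring, with its probe sets averaged, with the array set fitted by itself or with array weights (adjusted p = 0.0242 to 0.0343), and ABCC5 passed at 12 h with its probe sets averaged (adjusted p = 0.000325) and at 48 h with array weights (adjusted p = 0.0299). No doses are stated, so these values do not compare potency.

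Between the high and the low dose of Kbr at 24 h, 0 transporters passed by limma (4.39% of all genes), and 2 had an unadjusted p under 0.05, ABCB6 and ABCC3. The share of all genes at that unadjusted threshold was not counted here either. ABCC3 was at -0.41 ± 0.18, adjusted p = 0.218, and passed with the replicate block (adjusted p = 0.0355). At 48 h 3 passed (23.8%), each lower at the high dose: ABCC3 (1.97-fold, -0.98 ± 0.18, adjusted p = 0.000210), ABCB6 (1.52-fold, -0.60 ± 0.17, adjusted p = 0.00825) and ABCC4 (-0.23 ± 0.08, adjusted p = 0.0467). The ABCC4 call was lost without high-dose Kbr 48 h replicate 2 or 3, low-dose Kbr 48 h replicate 1 or 2 or 3 (adjusted p = 0.0503 to 0.218), with quantile normalization (-0.23, adjusted p = 0.0612), with median centring (-0.10, adjusted p = 0.432), with its probe sets averaged (-0.18, adjusted p = 0.260), or with the array set fitted by itself (-0.23, adjusted p = 0.133). ABCB1 did not pass at 48 h, with an interval of -0.64 to 0.10. ABCC2, with both means at background, passed without high-dose Kbr 48 h replicate 3 (adjusted p = 0.0375).

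The Di effect changed from 12 h to 48 h in 5 transporters (29.0% of all genes). It rose for ABCC3 (2.18 ± 0.25), ABCC1 (1.61 ± 0.17) and ABCB6 (1.57 ± 0.23) and fell for ABCB1 (-0.78 ± 0.26, adjusted p = 0.0222). ABCC2 was called upward too (adjusted p = 0.000288), with no size given because it was at background in 3 of the 4 groups compared. The ABCB1 call was lost without control 48 h replicate 2 (adjusted p = 0.0502). ABCC4 (-0.30 ± 0.12, adjusted p = 0.0625) did not pass, and did with quantile normalization, with its probe sets averaged, with the array set fitted by itself, with array weights or without Di 12 h replicate 2 (adjusted p = 0.00336 to 0.0429). ABCC5 (0.41 ± 0.23, adjusted p = 0.180) did not pass either, and did with array weights (adjusted p = 0.00430).

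The CdCl effect changed in 3 transporters (24.2%). All p-values again refer to the unshifted change. Relative to a median of 0.12 over all genes, it rose for ABCB6 (0.72 ± 0.23, adjusted p = 0.0101) and ABCC3 (0.62 ± 0.25, adjusted p = 0.0340) and fell for ABCC4 (-0.62 ± 0.12, adjusted p = 0.00328). The ABCC3 call was lost without control 12 h replicate 1 or 2, control 48 h replicate 1 or 3, CdCl 12 h replicate 1 or 3, CdCl 48 h replicate 2 or 3 (adjusted p = 0.0501 to 0.0771), with no filter on low values (0.74, adjusted p = 0.0603), or with median centring (0.61, adjusted p = 0.0804). ABCB1 did not pass (-0.80 ± 0.26, adjusted p = 0.0546), and did with a variance trend, with median centring, with its probe sets averaged, with the array set fitted by itself or with array weights (adjusted p = 0.000122 to 0.0473). ABCC2 (adjusted p = 0.0707, controls at background) passed with median centring, with array weights, without CdCl 48 h replicate 2 or without CdCl 48 h replicate 3 (adjusted p = 0.00557 to 0.0475).

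The high-dose Kbr effect fell further from 24 h to 48 h for ABCC3 (-0.87 ± 0.25, adjusted p = 0.0203) and ABCC4 (-0.51 ± 0.12, adjusted p = 0.00477), 2 of 7 (15.0% of all genes). The ABCC3 call was lost without control 24 h replicate 3, control 48 h replicate 1, high-dose Kbr 24 h replicate 1 or 2 (adjusted p = 0.0517 to 0.0684), with its probe sets averaged (-0.35, adjusted p = 0.170), or with the array set fitted by itself (-0.87, adjusted p = 0.0764). The ABCC4 call was lost with its probe sets averaged (-0.42, adjusted p = 0.0705). ABCB1 was at -0.55 ± 0.26, adjusted p = 0.157, at an adjusted p of 0.0105 with the replicate block, and passed with its probe sets averaged, with the replicate block or without Kbr control 48 h replicate 3 (adjusted p = 0.0105 to 0.0192). For the low dose ABCC4 passed (-0.42 ± 0.12, adjusted p = 0.0422), 1 of 7 (4.35%), a call lost without control 24 h replicate 3, control 48 h replicate 1 or 2, low-dose Kbr 24 h replicate 1 or 2, low-dose Kbr 48 h replicate 1 or 2 (adjusted p = 0.0580 to 0.139), with its probe sets averaged (-0.35, adjusted p = 0.214), with the array set fitted by itself (-0.42, adjusted p = 0.189), or with array weights (-0.38, adjusted p = 0.0653).

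The opposite directions of ABCC3 in the array sets were tested as a difference of effects at 48 h. The CdCl effect exceeded that of high-dose Kbr by 3.08 ± 0.25, adjusted p = 1.55e-10, and the Di effect exceeded it by 4.03 ± 0.25, adjusted p = 1.47e-12. For ABCB6 these differences were 1.62 ± 0.23 and 0.97 ± 0.23, and for ABCC1 0.59 ± 0.17 and 1.34 ± 0.17. ABCB1 differed for CdCl (1.30 ± 0.26, adjusted p = 0.000122) and not past the threshold for Di (95% interval -0.41 to 0.64). ABCC4 passed in neither (0.17 ± 0.12 and 0.18 ± 0.12), and in both without Kbr control 48 h replicate 3 (adjusted p = 0.0402 and 0.0390). In all 5 and 4 of 7 passed, against 50.1% and 43.5% of all genes. Compound and array set cannot be told apart here.

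Between controls of different time, 4 of 7 transporters differed in the CdCl and Di set (45.7% of all genes), namely ABCB6, ABCC4 and ABCC5 as given above and ABCC3 (-0.57 ± 0.18, adjusted p = 0.0103, lost with its probe sets averaged (-0.24, adjusted p = 0.0995)). ABCC1 (0.21 ± 0.12, adjusted p = 0.160) passed with median centring or with array weights (adjusted p = 0.0206 to 0.0281). In the Kbr set 2 did (12.2%), ABCB6 and ABCC4.

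Probe sets of a gene read different stretches of its transcripts, and those of ABCC4 and ABCC5 disagreed after 12 h of CdCl. Without the shift by the median, the ABCC4 probe set used above gave -0.02 ± 0.09, against 0.81 ± 0.16, adjusted p = 0.000179 and 0.81 ± 0.19, adjusted p = 0.00142 from the other 2 kept ones, adjusted over all kept probe sets. With Di at 12 h, the latter passed upward too (0.71 ± 0.19, adjusted p = 0.0235). For ABCC5 the probe set used above gave -0.03 ± 0.16, against 0.38 ± 0.12, adjusted p = 0.0160 and 1.43 ± 0.31, adjusted p = 0.000575 from the other 2. At 48 h the ABCC4 probe sets had the same sign in each comparison, and the falls with CdCl, Di and low-dose Kbr passed on the probe set used above alone.

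All 5 kept probe sets of ABCC3 passed upward with Di at 48 h, from 0.82 ± 0.23 to 1.81 ± 0.35. With CdCl at 48 h the one used above (0.81 ± 0.18) and others at 0.55 ± 0.15 and 0.83 ± 0.23 passed upward. Those at 0.13 ± 0.15 and 0.26 ± 0.35 did not pass. With high-dose Kbr at 48 h, 3 of the 5 passed downward, the one used above (-2.27 ± 0.18) and others at -1.13 ± 0.15 and -0.73 ± 0.23. Those at -0.33 ± 0.15 and 0.09 ± 0.35 did not pass. High-dose Kbr at 24 h passed on 2 of the 5, the one used and another at -0.82 ± 0.15, and low-dose Kbr at 48 h on the same 2, the other at -0.42 ± 0.15. Low-dose Kbr at 24 h passed on the one used alone, with adjusted p of 0.0920 to 0.900 on the others. The other probe set of ABCB1 fell with CdCl at 48 h (-0.68 ± 0.24, adjusted p = 0.0256), where the one used above did not pass. With Kbr at 24 h it did not pass (-0.58 ± 0.24, adjusted p = 0.0616 for the high and -0.48 ± 0.24, adjusted p = 0.219 for the low dose), where the one used above did. The other probe set of ABCC1 passed upward with CdCl (0.52 ± 0.19) and Di (1.27 ± 0.19) at 48 h and not with CdCl at 12 h (0.20 ± 0.19).

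**Figure D3:**
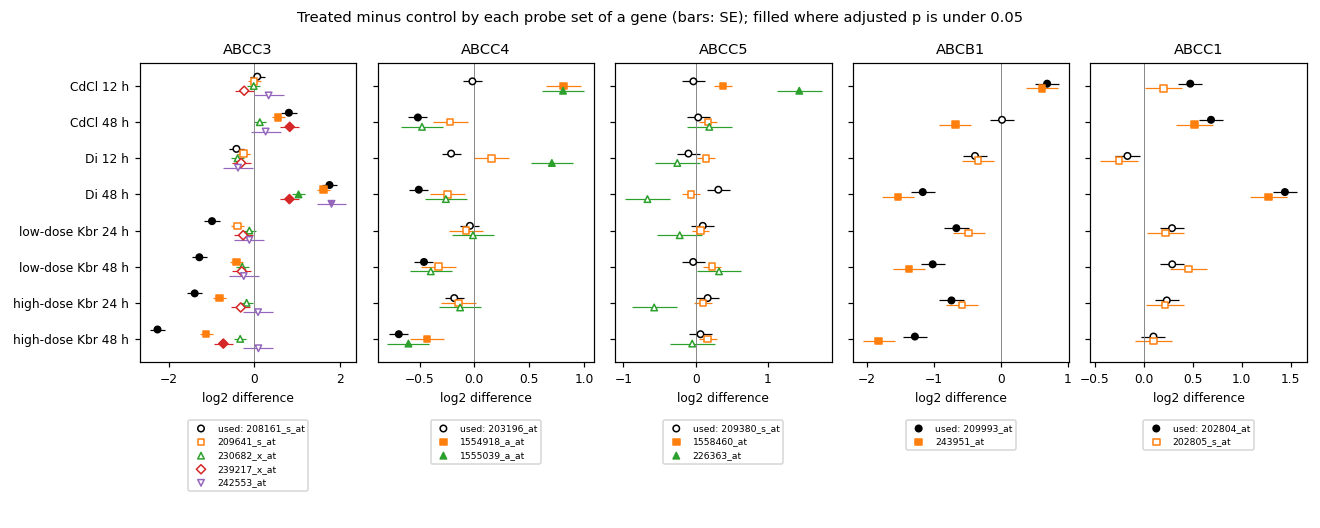
Log2 difference, treated minus matched control, from each kept probe set of the 5 transporters with several (bars, SE; filled points passed at an adjusted p under 0.05 over all kept probe sets; black, the probe set used elsewhere). With high-dose Kbr at 48 h the probe sets of ABCC3 spread from -2.27 to 0.09.

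Across all 12 groups the order of levels differed between transporters. ABCC1 was highest with Di at 48 h, then CdCl at 48 h, then CdCl at 12 h, with no overlap between these neighbours. ABCC3 was lowest with high-dose Kbr at 48 h and highest with Di at 48 h, both without overlap with the neighbouring group, and from the 48 h control of the CdCl and Di set up to CdCl at 12 h each group overlapped the next. ABCB1 was highest with CdCl at 12 h (10.76 ± 0.05 (SD, n = 3)), without overlap, and lowest with high-dose Kbr at 48 h (8.19 ± 0.30 (SD, n = 3)), where it overlapped the low dose. ABCB6 was highest in the 2 CdCl groups, which overlapped each other and no other group. These orders across sets include any difference between the sets.

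Over the 12 group means, centred within each set, ABCB6 and ABCC2 (r = 0.66) and ABCC1 and ABCC2 (r = 0.65) were the most alike transporters, and ABCB1 and ABCC1 (r = -0.54) the least. The genes most like ABCC2 by r were ABL2 (0.981), ZEB2 (0.979) and WHRN (0.978). For ABCC3 they were IRS1 (0.957), RPH3AL (0.944) and DLG1 (0.940), for ABCC1 SH3BP5 (0.961), GNA13 (0.958) and GOLGA2P10 (0.956) and for ABCC4 QPCT (0.974), CDON (0.947) and ACSM3 (0.945). For ABCC5 they were ETFA (0.962), PRIM2 (0.948) and LUZP1 (0.947), for ABCB1 WFDC2 (0.938), AGT (0.933) and SYT13 (0.933) and for ABCB6 COMMD8 (0.941), NMT2 (0.935) and SRRD (0.898). These are the best of all genes tested over means that share arrays and controls, and are descriptions only. The mean of ABCC2 was above the floor only with CdCl and with Di at 48 h, so its r values rest largely on those groups.

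For the gene lists that follow, the calls over all genes tested are the background. With CdCl they were 1484 genes higher and 3386 lower at 12 h and 2292 genes higher and 2443 lower at 48 h, and with Di 185 genes higher and 510 lower at 12 h and 2122 genes higher and 2651 lower at 48 h. High-dose Kbr gave 1711 genes higher and 2806 lower at 24 h and 3031 genes higher and 3824 lower at 48 h, and low-dose Kbr 769 genes higher and 918 lower at 24 h and 2642 genes higher and 2570 lower at 48 h. The median difference over all genes lay between -0.16 and 0.00. Nothing particular to a list is read from its counts.

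Of the other ABC transporters 16 of 31 were tested, with medians of -0.27 to 0.04 over the 8 comparisons. With CdCl 2 rose and 6 fell at 12 h and 3 higher and 3 lower at 48 h. With Di it was 0 higher and 0 lower at 12 h and 6 higher and 5 lower at 48 h, where TAP2, a peptide pump of antigen presentation (2.09 ± 0.15), and ABCA1, a cholesterol exporter (0.96 ± 0.12), rose. With high-dose Kbr it was 5 higher and 3 lower at 24 h and 6 higher and 7 lower at 48 h, where the lipid transporters ABCA12 (-1.71 ± 0.20), ABCA3 (-1.62 ± 0.18) and ABCA7 (-1.35 ± 0.28) fell. With the low dose it was 3 higher and 0 lower at 24 h and 4 higher and 5 lower at 48 h.

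Among the solute carriers (SLC) of drugs and organic ions, 11 of 30 were tested (medians -0.81 to 0.08). With high-dose Kbr 2 rose and 5 fell at 24 h and 2 higher and 7 lower at 48 h, with a median of -0.81 at 48 h beside -0.06 over all genes. There the organic anion carriers SLC17A3 (-4.16 ± 0.22) and SLCO4C1 (-2.52 ± 0.23) fell, as they did with Di at 48 h (-4.28 ± 0.22 and -2.0 ± 0.23). The low dose gave 1 higher and 3 lower at 24 h and 2 higher and 7 lower at 48 h. CdCl gave 1 higher and 2 lower at 12 h and 3 higher and 2 lower at 48 h, and Di 0 higher and 1 lower at 12 h and 3 higher and 4 lower at 48 h.

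Of the genes listed for glutathione supply and conjugation, 16 of 23 were tested (medians -0.17 to 0.15). GCLM, a subunit of the enzyme that starts glutathione synthesis, rose in all 8 comparisons, from 0.80 ± 0.15 (Di, 12 h) to 3.67 ± 0.15 (Di, 48 h). With CdCl 6 rose and 4 fell at 12 h and 6 higher and 2 lower at 48 h, and with Di 1 higher and 0 lower at 12 h and 6 higher and 3 lower at 48 h. With high-dose Kbr it was 4 higher and 7 lower at 24 h and 4 higher and 7 lower at 48 h. At 48 h GSTZ1, of the glutathione transferase family, fell (-2.76 ± 0.20). The low dose gave 4 higher and 3 lower at 24 h and 5 higher and 7 lower at 48 h.

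Around ABCB6, 17 of 20 haem and porphyrin genes were tested (medians -0.15 to 0.16). HMOX1, which breaks down haem, rose in all 8 comparisons, from 0.84 ± 0.19 (Di, 12 h) to 6.43 ± 0.19 (CdCl, 12 h, relative to the median). ALAD, an early enzyme of haem synthesis, fell at 48 h with CdCl (-1.51 ± 0.18), Di (-1.57 ± 0.18) and high-dose Kbr (-2.01 ± 0.18). With CdCl 5 rose and 5 fell at 12 h and 7 higher and 5 lower at 48 h, and with Di 1 higher and 1 lower at 12 h and 7 higher and 5 lower at 48 h. The high dose of Kbr gave 5 higher and 7 lower at 24 h and 5 higher and 8 lower at 48 h, and the low dose 4 higher and 2 lower at 24 h and 7 higher and 8 lower at 48 h.

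Of regulators of efflux pump genes, 16 of 23 were tested (medians -0.07 to 0.13). MAFF, a small MAF protein and so a partner of NRF2, rose with CdCl at 12 h (3.73 ± 0.15, relative to the median) and Di at 48 h (2.01 ± 0.15), and MAFG, another, with Di (1.49 ± 0.22) and high-dose Kbr (1.85 ± 0.22) at 48 h. RXRA, the partner of xenobiotic receptors, fell with high-dose Kbr at 48 h (-1.50 ± 0.16). With CdCl 6 rose and 3 fell at 12 h and 4 higher and 2 lower at 48 h, and with Di 0 higher and 0 lower at 12 h and 7 higher and 3 lower at 48 h. The high dose of Kbr gave 3 higher and 6 lower at 24 h and 7 higher and 5 lower at 48 h, and the low dose 1 higher and 2 lower at 24 h and 6 higher and 3 lower at 48 h.

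Marker levels also differed between treated and control arrays, not always in the same direction. The log2 of the summed level of the 14 proximal tubule markers was 13.84 to 13.96 in the 48 h control of CdCl and Di, 12.82 to 12.84 with CdCl and 12.07 to 12.21 with Di. Of the 6 tested ones, 2 were called higher and 4 lower with CdCl, and 1 higher and 4 lower with Di. In the Kbr set at 48 h the sum was 13.88 to 14.39 in control, 12.58 to 12.79 with the high and 12.97 to 13.31 with the low dose. There 0 were called higher and 5 lower with each dose. With Kbr at 24 h 1 was called higher at each dose, and 5 lower with the high and 3 with the low dose. The log2 sum of the 11 fibroblast, endothelial and leukocyte markers was 11.23 to 11.40 in the first control, 11.40 to 11.68 with CdCl and 10.37 to 10.43 with Di. Of the 2 tested ones, 0 were called higher and 1 lower with CdCl, so this sum and the calls went in different directions. With Di 0 were called higher and 2 lower. The sum was 12.04 to 12.15 in the Kbr control, 10.05 to 10.43 with the high and 10.18 to 10.74 with the low dose. At 24 h of Kbr the proximal tubule sum was 13.56 to 14.05 in control, 12.90 to 13.27 with the high and 13.21 to 13.61 with the low dose, and the fibroblast, endothelial and leukocyte sum 12.11 to 12.60, 11.23 to 11.66 and 11.51 to 11.98. At 12 h the proximal tubule sum was 14.01 to 14.09 in control, 13.75 to 13.98 with CdCl and 13.74 to 14.02 with Di. The sum of the 5 epithelial markers was 14.42 to 14.68 in the 24 h Kbr control, 13.98 to 14.18 with the high and 14.09 to 14.32 with the low dose. At 48 h it was 14.24 to 14.55, 13.88 to 14.10 and 13.98 to 14.34 in that order. In the CdCl and Di set it was 14.46 to 14.62 in the 48 h control, 14.30 to 14.43 with CdCl and 14.16 to 14.23 with Di. At 12 h it was 14.26 to 14.37 in control and 14.09 to 14.10 with CdCl. Of the 5, 0 higher and 3 lower were called with high-dose Kbr at 24 h and 1 higher and 4 lower at 48 h. The fibroblast, endothelial and leukocyte sum rests on DCN and LUM, detected on all 36 arrays, while PTPRC, CDH5, PDGFRA and PDGFRB were under the floor on each. All arrays are of the HK-2 line, so the lists name genes and do not show that such cells were present. In bulk RNA, fewer cells of a type and less RNA per cell cannot be told apart, and the part of these markers in the transporter values was not tested. Beta-actin 3' minus 5' averaged 1.40 with Di at 12 h against 1.84 in its control, and its part was not tested.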

How the data were processed

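Per the labels' protocols, total RNA of HK-2 cells was turned into biotinylated cRNA for 36 Affymetrix arrays of 1 colour. The authors deposited log2 values per probe set. The submitters' processing notes name GCRMA, a method that corrects background by probe sequence, and no version or setting of it was found. Dim genes end in a background floor, where differences are compressed. The number of arrays limits precision.

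Of 54675 probe sets, 62 controls were left out. For the tests of genes, those the platform annotation gives to several genes (1801) or to none (11721) were left out too. The fits of single probe sets and the correlations of arrays within a group used all 23599 probe sets past the filter, whatever their annotation. After the filter the brightest probe set stood for each gene (11092 genes). A limma 3.58.1 model (R 4.3.3, lmFit and eBayes) of 12 group means gave all tests. Its p-values were adjusted by Benjamini-Hochberg over all genes, or over all kept probe sets for single ones. Tested on simulated data for the 8 comparisons with control, the model recovered 31.1% to 41.7% of altered genes at a log2 change of 0.5. The share was 80.0% to 89.2% at 1 and 98.5% to 100% at 2. Of the called genes 3.33% to 7.50% were unchanged ones, above 5% for CdCl at 12 h and low-dose Kbr at 48 h. The simulation altered 55 to 86 of 11092 genes at each size, fewer than were called in any real comparison with control. Its rates therefore need not hold for these data.

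Replicate numbers come from the labels. Among Kbr arrays, deviations from group means correlated above 0.1 in 45 of 45 pairs with the same number (r = 0.218 to 0.701), so blocked values stand beside results they change. The numbers are taken as pairing there from the data, not the design.

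All 8 transporters are named, with the 3 genes most like each tested one. Of each list, up to 3 members with the largest passing differences in a comparison could be named, and some of them are. Transporters and lists were chosen with earlier results of these data known. Alternatives were other filters, a variance trend, quantile normalization, median centring, averaged probe sets, single probe sets, 1 array set at a time, a replicate block, array weights and leaving out each array. Promoter sequences are from RefSeq (GRCh38.p14), matched by symbol.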

Additional observations from a re-analysis of the deposited data

Results flagged for a closer look

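In 20 cases the effect on a transporter differed by a limma test of that difference itself, in 11 between times and in 9 between CdCl or Di and high-dose Kbr. The latter come from separate array sets, so compound and array set cannot be told apart in them. From 12 h to 48 h the CdCl effect changed by 0.84 for ABCB6, 0.74 for ABCC3 and -0.50 for ABCC4, before the shift by the median of all genes. The Di effect changed by -0.78 for ABCB1, 1.57 for ABCB6, 1.61 for ABCC1, 2.19 for ABCC2 and 2.18 for ABCC3. From 24 h to 48 h the high-dose Kbr effect changed by -0.87 for ABCC3 and -0.51 for ABCC4, and the low-dose effect by -0.42 for ABCC4. At 48 h the CdCl effect minus that of high-dose Kbr was 1.30 for ABCB1, 1.62 for ABCB6, 0.59 for ABCC1, 1.26 for ABCC2 and 3.08 for ABCC3. The Di effect minus that of high-dose Kbr was 0.97 for ABCB6, 1.34 for ABCC1, 1.41 for ABCC2 and 4.03 for ABCC3. The ABCC2 difference between CdCl and high-dose Kbr (adjusted p = 0.0167) was lost without CdCl 48 h replicate 2 or 3, high-dose Kbr 48 h replicate 2 or 3 (adjusted p = 0.0582 to 0.0681). The sizes given for ABCC2 rest on groups at background and are no estimate of its change.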

How the results depend on the processing

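Apart from single probe sets, 2200 of 2318 differences recomputed under an alternative kept their call or lack of one. Of the rest, 61 lost the call, 55 gained one and 2 reversed. Reversed means that the sign changed and at least 1 of the 2 fits was called. The reversed ones were ABCC4 (0.53) and ABCC5 (0.59) with CdCl at 12 h and probe sets averaged. In the main fit they were at -0.02 and -0.03 and not called. Single probe sets reversed ABCC4 with CdCl at 12 h (0.81 and 0.81) and Di at 12 h (0.71), ABCC5 with CdCl at 12 h (0.38 and 1.43), ABCB1 with CdCl at 48 h (-0.68) and ABCC3 with high-dose Kbr (0.0853 at 24 h and 0.0928 at 48 h). For ABCC4, ABCC5 and ABCB1 the main fit was not called there. For ABCC3 the main fit was called and the single probe set was not. With Di at 12 h, transporters called went from 0 to 1 (array set fitted by itself), 2 (replicate block) and 3 (array weights). Genes called over the whole table there went from 695 to 1446, 1662 and 2394 in that order, and to 286 to 613 without 1 array (309 without control replicate 2, 286 without control replicate 3, 353 without Di replicate 2 and 452 without Di replicate 3). With low-dose Kbr at 24 h they went from 1687 to 933 with the set by itself, 2720 with the replicate block and 824 to 1882 without 1 array (824 without control replicate 1 and 997 without low-dose replicate 3). Transporters called there went from 3 to 1 to 4 without 1 array (1 without control replicate 1), and with high-dose Kbr at 24 h from 2 to 2 to 4 (4 without control replicate 3). In the CdCl and Di set 8 of 45 same-numbered pairs correlated above 0.1 and 5 of 18 arrays lay nearest their own number, so the samples there share only a number. The replicate block added calls there for Di at 12 h (ABCB1, adjusted p = 0.0175, and ABCC3, 0.0231), for Di at 48 h (ABCC5, 0.0208), between CdCl and Di (ABCC4 at 12 h, 0.0476, and ABCC5 at 48 h, 0.0424) and for changes with time (ABCB1 with CdCl, 0.00136, and ABCC4, 0.0391, and ABCC5, 0.0396, with Di). The cause of these changes was not tested. ABCC2 and ABCG2 are limited by signal at background.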
